A study of Homo sapiens with 16 samples.

Results

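The comparison described here sets elaidic acid, the trans form of a monounsaturated fatty acid, against stearic acid, the saturated fatty acid of the same chain length. Its members were all arrays labelled with either acid: 4 elaidic and 4 stearic samples, 8 of the 16 samples of the study. The cells were HepG2, an established human liver tumour cell line, kept without serum and given 100 µM of the acid for 7 days before total RNA was taken. The other 8 samples, 4 untreated controls and 4 with oleic acid (the cis form), were used for the estimate of spread, and the controls also for background levels. Each sample was stated to be a biological replicate, its RNA was amplified, labelled with Cy5 and read on 1-colour arrays in 2 technical replicates, and 1 intensity per probe and sample was deposited. All samples came from 1 cell line, so that the p-values describe the spread between HepG2 samples only.

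By their array numbers, the samples divide into 2 sets, here slide series A and slide series B. All 4 stearic samples and elaidic replicates 1 and 3 lie in series B. Elaidic replicates 2 and 4 lie in series A with the controls. Differences are therefore given in 2 forms: over 4 against 4 samples, and within series B, 2 elaidic against 4 stearic samples. The first is the average of the second and of the difference that runs across the series, which cannot be told apart from a difference between the series. Over 4 against 4 samples, the spread behind the SE and p-values also holds the gap between the elaidic arrays of the 2 series. On 22939 probes, the correlation of log2 levels between an elaidic and a stearic array was 0.959 to 0.963 for the elaidic arrays of series B and 0.887 to 0.922 for those of series A. The 2 groups of elaidic arrays correlated with each other at 0.893 to 0.913. Median intensity before normalisation was 42.4 ± 15.8 (SD, n = 4) with elaidic acid and 57.0 ± 13.2 (SD, n = 4) with stearic acid, a difference of -14.5 (two-sided exact permutation test, p = 0.286, smallest possible 0.0286). Within series B the difference was -1.16.

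Fatty acids taken up by liver cells are activated to acyl-CoA, built into triglycerides, phospholipids and cholesterol esters, or oxidised in mitochondria. Their make-up is sensed through SREBP transcription factors, which are released from the endoplasmic reticulum when membrane sterols are low and raise the genes of cholesterol and fatty acid synthesis, and through PPAR-alpha, which raises genes of fatty acid oxidation. The trans double bond leaves elaidic acid nearly straight, so that its shape is closer to that of stearic acid than to that of the bent cis isomer.

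Compared with stearic acid, elaidic acid was accompanied by higher transcripts of 8 named genes, among them KNG1, which encodes the plasma protein kininogen, PCOLCE, which encodes an enhancer of procollagen processing, the growth factor gene TGFA and the DNA helicase gene PIF1. A larger group of 58 probes with a gene symbol was lower, among them the peroxiredoxin gene PRDX4, the water and glycerol channel gene AQP3, the tropomyosin gene TPM4 and several genes of mitochondrial proteins. In all, 91 of 22939 probes (0.397%) passed limma's test at a Benjamini-Hochberg adjusted p under 0.05, which is what "called", "rose" and "fell" refer to here. Of these, 20 (0.0872%) rose and 71 (0.31%) fell with elaidic acid. A log2 difference of 1 is a 2-fold difference in intensity. Called differences ran from 0.98 to 1.93 upwards, with a median of 1.26, and from -0.92 to -2.89 downwards, with a median of -1.34.

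The calls lay close to the threshold, with adjusted p from 0.0377 to 0.05. Leaving out elaidic replicate 1 left 51 calls, 34 of them among the 91, and leaving out elaidic replicate 2, 3 or 4 or any of the 4 stearic replicates left 0 in limma, with 1939 to 4305 probes at an unadjusted p under 0.05. With slide series as a block 1 probe was called (0.00436%), which has no symbol and was not among the 91, and 1334 probes were under an unadjusted p of 0.05. The differences themselves had the same sign within series B for all 91 probes, with adjusted p of 0.288 to 0.447 there in limma. Their size within series B was 0.886 times the size over 8 samples in the median, from 0.588 to 1.16 times. In all 91 the 2 groups of 4 did not overlap, beside 2719 of all probes tested (11.9%; 4.72% higher and 7.13% lower with elaidic acid), and within series B they did not overlap either, beside 5358 of all probes (23.4%). Since the 2 comparisons share the stearic samples and elaidic replicates 1 and 3, the second is no independent support of the first.

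**Figure D1:**
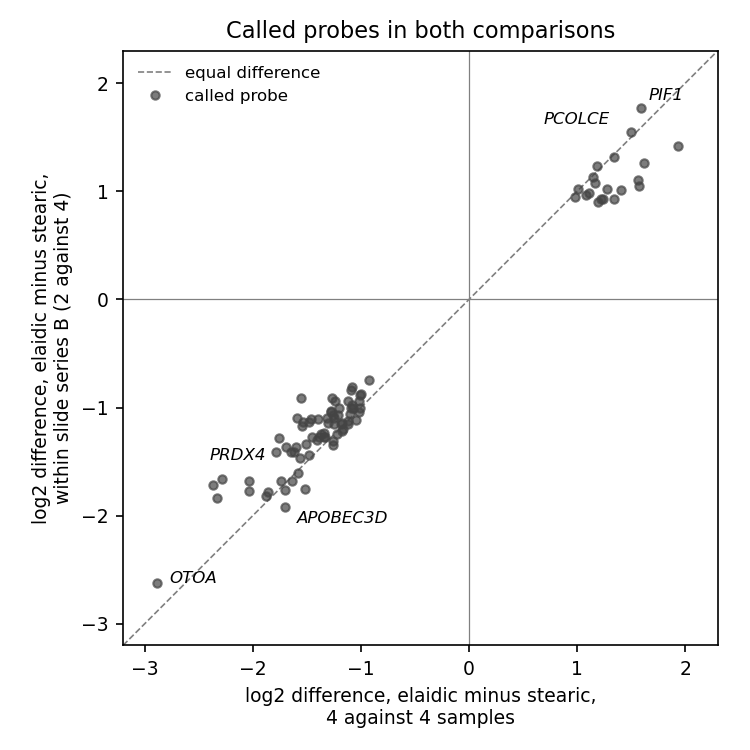
Each point is 1 of the 91 called probes, with its log2 difference (elaidic minus stearic) over 4 against 4 samples on the x axis and within slide series B, 2 against 4 samples, on the y axis; the dashed line marks equal differences. All points have the same sign on both axes, and most lie nearer to 0 on the y axis than on the x axis, with a median ratio of 0.886.

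Among the 8 named genes that rose, KNG1 had the smallest SD in both groups. Kininogen is secreted by hepatocytes and carries bradykinin, which the contact system of coagulation releases. Its log2 level (quantile-normalised log2 intensity, as for all levels here) was 10.84, 11.13, 10.90 and 10.72 in elaidic replicates 1 to 4 and 9.66, 9.68, 9.51 and 9.40 in stearic replicates 1 to 4. Every elaidic array was above every stearic array, and the elaidic arrays of the 2 slide series lay close together. The difference was 1.34 ± 0.22 (SE; adjusted p = 0.0377 in limma) over all 8 samples and 1.31 ± 0.26 within series B. The untreated cultures, all in series A, were at 8.70 to 9.56, below all 4 elaidic arrays.

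PCOLCE was at 9.75, 10.18, 9.98 and 9.37 with elaidic acid and at 8.63, 8.34, 8.13 and 8.17 with stearic acid. The groups did not overlap, and the controls, at 7.84 to 8.21, were in and below the range of the stearic arrays. The difference was 1.503 ± 0.227 (adjusted p = 0.0377, limma), and 1.55 ± 0.28 within series B. PIF1, a helicase of nuclear and mitochondrial DNA, was at 7.34, 7.15, 7.26 and 6.72 against 5.10, 5.20, 6.21 and 5.61, a difference of 1.59 ± 0.32 (adjusted p = 0.0468, limma) and of 1.77 ± 0.39 within series B. Its stearic arrays spread more widely than its elaidic arrays, and stearic replicate 3 came nearest to them. The PIF1 controls, at 4.07 to 5.35, were below all elaidic arrays.

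TGFA, which encodes transforming growth factor alpha, a ligand of the EGF receptor, was at 11.91, 13.01, 12.12 and 12.63 with elaidic acid and at 10.88, 11.39, 11.21 and 10.84 with stearic acid. Here the elaidic arrays of series A stood above those of series B, so that the difference of 1.34 ± 0.27 (adjusted p = 0.0468, limma) became 0.93 ± 0.28 within series B. The controls, at 12.58 to 13.28, reached below and above the series A elaidic arrays. ALDH3B2, an aldehyde dehydrogenase gene, had the same pattern, at 1.41 ± 0.26 over all samples and 1.02 ± 0.27 within series B, with controls at 13.83 to 14.44 beside 13.14 to 14.26 with elaidic acid. The remaining called genes with higher levels were TMEM132E (1.56 ± 0.31, and 1.10 ± 0.33 within series B), MSI1, which encodes an RNA-binding protein (1.19 ± 0.24, and 0.90 ± 0.27), and OTUD7B, which encodes a deubiquitinase (1.11 ± 0.20, and 0.99 ± 0.23). The other 12 called probes that rose carry no symbol here. Probes that rose were often bright: 9 of the 20 had a mean log2 level of at least 12, compared with 2 of the 71 that fell and 3.36% of all probes tested.

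**Figure D2:**
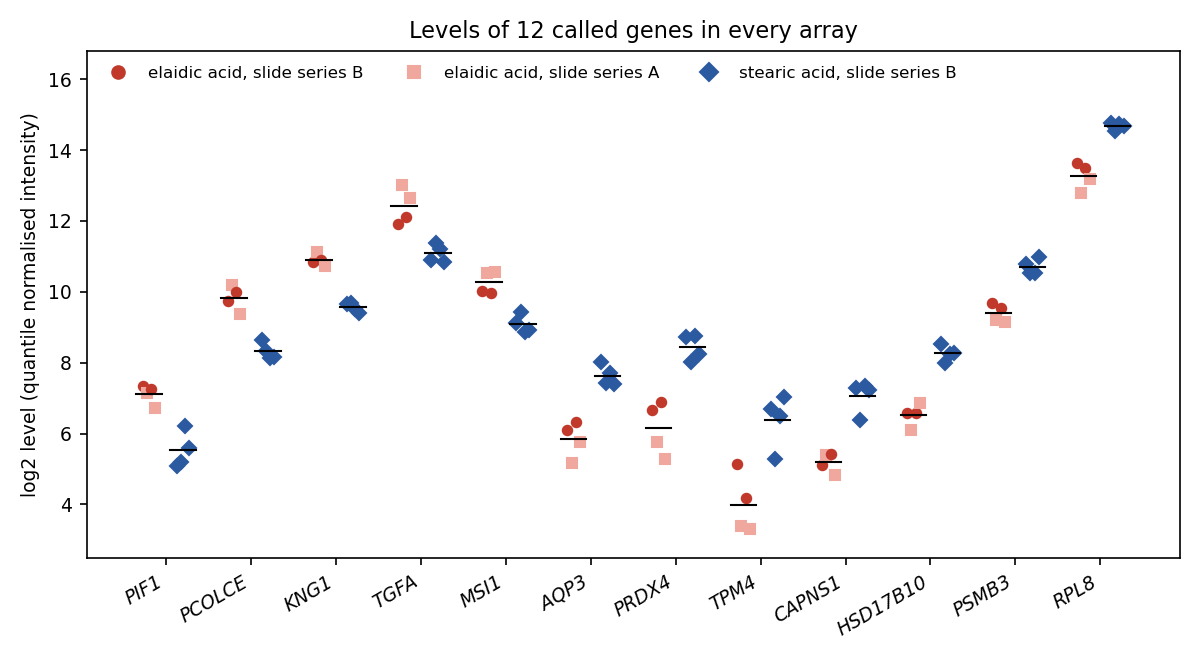
Quantile-normalised log2 intensity of 12 named genes in each elaidic and stearic array, with elaidic arrays of slide series A and B drawn apart and a line at each group mean. The elaidic and stearic points do not overlap in any of the 12 genes, and the series A arrays lie farther from the stearic level than the series B arrays for PRDX4 and TGFA; levels are not comparable between genes.

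AQP3, which encodes a membrane channel for water and glycerol, fell in the elaidic arrays of both slide series. Its level was 6.11, 5.18, 6.34 and 5.76 with elaidic acid and 8.01, 7.43, 7.71 and 7.39 with stearic acid. The lowest stearic array was more than 1 log2 unit above the highest elaidic array. The difference was -1.79 ± 0.26 (adjusted p = 0.0377, limma) and -1.41 ± 0.27 within series B. The controls, at 6.15 to 6.76, were below all stearic arrays and overlapped elaidic replicate 3.

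PRDX4, the peroxiredoxin of the endoplasmic reticulum, which reduces hydrogen peroxide, was at 6.67, 5.76, 6.88 and 5.28 with elaidic acid and at 8.73, 8.01, 8.75 and 8.26 with stearic acid. The difference was -2.29 ± 0.37 (adjusted p = 0.0377, limma) and -1.66 ± 0.36 within series B. The elaidic arrays of series A were lower than those of series B and near the controls, which were at 5.42 to 5.81. PRDX2, a cytosolic peroxiredoxin, also fell, by 1.55 on the log2 scale (SE 0.31) over all samples and by 0.91 (SE 0.26) within series B. Of the 4 peroxiredoxin genes tested, 2 were called lower, beside 0.31% of all probes. The other PRDX2 probe was not called, at -1.64 ± 0.62 over all samples and -0.73 ± 0.67 within series B. PRDX5 was at -0.90 ± 0.52 and PRDX6 at -0.57 ± 0.62 (adjusted p = 0.409 and 0.629, limma), and within series B they were at -0.43 ± 0.62 and 0.47 ± 0.62. PRDX2 and the peroxiredoxin family were singled out after their values were seen.

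TPM4, which encodes a tropomyosin of actin filaments, was at 5.13, 3.38, 4.18 and 3.30 with elaidic acid and at 6.68, 5.28, 6.50 and 7.02 with stearic acid. The groups were close at 1 point, where stearic replicate 2 lay just above elaidic replicate 1. The difference was -2.37 ± 0.41 (adjusted p = 0.0377, limma), and -1.71 ± 0.41 within series B. In both series A elaidic arrays TPM4 was within the background size, taken as the size of the most negative intensity of an array (11 to 18.5), so that only the value within series B compares levels above it in all arrays. CAPNS1, which encodes the small subunit of calpain proteases, was lower by a similar amount in both forms, -1.86 ± 0.33 and -1.78 ± 0.41 within series B. The other CAPNS1 probe was not called, at -1.52 ± 1.24 and -1.59 ± 1.57. APOBEC3D, which encodes a cytidine deaminase that acts against retroviruses, was at 4.94, 4.89, 4.24 and 5.13 against 6.40, 6.41, 6.57 and 6.64, a difference of -1.71 ± 0.27 (adjusted p = 0.0377, limma) that was -1.92 ± 0.32 within series B. DNAJC12, a co-chaperone gene, was at -1.76 ± 0.33 and -1.29 ± 0.34.

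MTX1, which encodes a protein of the outer mitochondrial membrane, was at -2.03 ± 0.39 over all samples, where 1 series A elaidic array was within the background size, and -1.68 ± 0.46 within series B. HSD17B10, which encodes a mitochondrial dehydrogenase of branched-chain amino acid and fatty acid breakdown, was at 6.58, 6.09, 6.58 and 6.85 with elaidic acid and at 8.52, 7.99, 8.26 and 8.27 with stearic acid, a difference of -1.74 ± 0.34 (adjusted p = 0.0468, limma) and -1.68 ± 0.43 within series B. All elaidic arrays of HSD17B10 were below all stearic arrays. Its other probe, which was brighter, was at -1.03 ± 0.32 and -0.67 ± 0.36 and was not called. CD3D, best known from T cells, fell on 1 probe, with -1.70 ± 0.34 over all samples and -1.76 ± 0.43 within series B and 1 series A elaidic array within the background size. Its other probe was at 0.54 ± 0.26 (adjusted p = 0.352, limma) and 0.27 ± 0.30, so that the 2 probes disagree in direction. The other CD3D probe was far brighter, with a mean log2 level over all 16 samples of 13.18 against 5.73. OTOA was called lower on a probe whose intensity was within the background size in all arrays of both groups, so no difference is read from it.

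Outside the rule for named genes, further called genes were picked after their values were seen. GRN, which encodes the secreted and lysosomal protein progranulin, was at 7.46, 6.80, 7.56 and 7.39 with elaidic acid and at 9.13, 8.69, 8.96 and 8.91 with stearic acid, a difference of -1.62 ± 0.27 and of -1.41 ± 0.32 within series B. CDK4, the cyclin-dependent kinase of early cell cycle entry, was at 9.74, 9.38, 9.78 and 9.91 against 11.09, 11.04, 11.12 and 10.90. The difference was -1.33 ± 0.22, and -1.28 ± 0.27 within series B. Its other probe was at -0.01 ± 0.23 and -0.26 ± 0.25. That probe was far brighter, with a mean log2 level over all 16 samples of 15.33 against 9.86, so the fall rests on the dimmer of 2 probes. TIMP1, an inhibitor of matrix metalloproteinases, was at -1.30 ± 0.24 and -1.14 ± 0.29 within series B, and its controls, at 11.80 to 12.46, were above the elaidic arrays, at 10.68 to 11.39. CBR1, which encodes a carbonyl reductase, was at -1.41 ± 0.22 and -1.30 ± 0.27 within series B. Its other probe was not called, at -1.08 ± 0.35 and -0.50 ± 0.35. S100A16, a calcium-binding protein gene, was called lower on both of its probes. The first was at -1.47 ± 0.28 and -1.11 ± 0.31 within series B, and the second at -1.70 ± 0.28 and -1.37 ± 0.32.

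By the fit with slide series as a block, the named genes with symbols and the smallest p-values added EPSTI1, RNPEPL1, PACS1, MRPL54 and UHRF1 to those above. EPSTI1, which is induced by interferon, was at 1.37 ± 0.30 over all samples (adjusted p = 0.0585, limma) and 1.71 ± 0.34 within series B, while its other probe was at 0.12 ± 0.49 and -0.65 ± 0.51. PACS1, a sorting protein gene, was called lower at -1.18 ± 0.20 and was at -1.22 ± 0.24 within series B. RNPEPL1, an aminopeptidase gene, was at -1.17 ± 0.25 (adjusted p = 0.0575, limma) and -1.47 ± 0.28 within series B. Its other probe was at -0.52 ± 0.40 and -0.88 ± 0.47. UHRF1, which encodes a protein that maintains DNA methylation at replication forks, differed in sign between the 2 forms: it was at 8.93 and 8.26 in the elaidic arrays of series B, at 5.53 and 5.43 in those of series A, and at 7.05 to 7.48 with stearic acid. Its difference was -0.32 ± 0.61 over all samples and 1.24 ± 0.28 within series B (adjusted p = 0.333, limma).

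The gene lists below are described by counts and medians without a test, beside the same for all probes: the difference was above 0 for 54.8% of all probes over 8 samples and for 51.9% within series B, with medians of 0.07 and 0.02. Without normalisation the median of all probes was -0.28 over 8 samples, so directions are relative to the arrays as a whole; within series B that median was -0.02 without normalisation. Of 29 lists, 9 had a median above 0 over 8 samples and 21 within series B. The common reference genes, transcripts often taken as constant, show the size of this shift: the median of the 7 tested was -0.99 over 8 samples and -0.05 within series B. Markers of hepatocytes moved likewise, with a median of -0.42 over 8 samples and 0.07 within series B for the 10 tested, and their mean log2 level per array was 11.41 to 12.47 with elaidic and 12.07 to 12.35 with stearic acid. The part of this shift in the list medians over 8 samples was not tested. Of the 10 hepatocyte markers, 2 were higher and 8 lower over 8 samples, and 6 higher and 4 lower within series B. Outside the rule for named genes, TTR, APOA1 and AFP were at mean log2 levels of 14.81, 15.26 and 13.55 with elaidic acid. With stearic acid they were at 13.65, 15.56 and 14.24. ALB was not tested. Of 24 markers of other cell types 15 were tested, and their mean level per array was 6.32 to 6.75 with elaidic and 6.66 to 6.69 with stearic acid, with 10 higher and 5 lower.

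**Figure D3:**
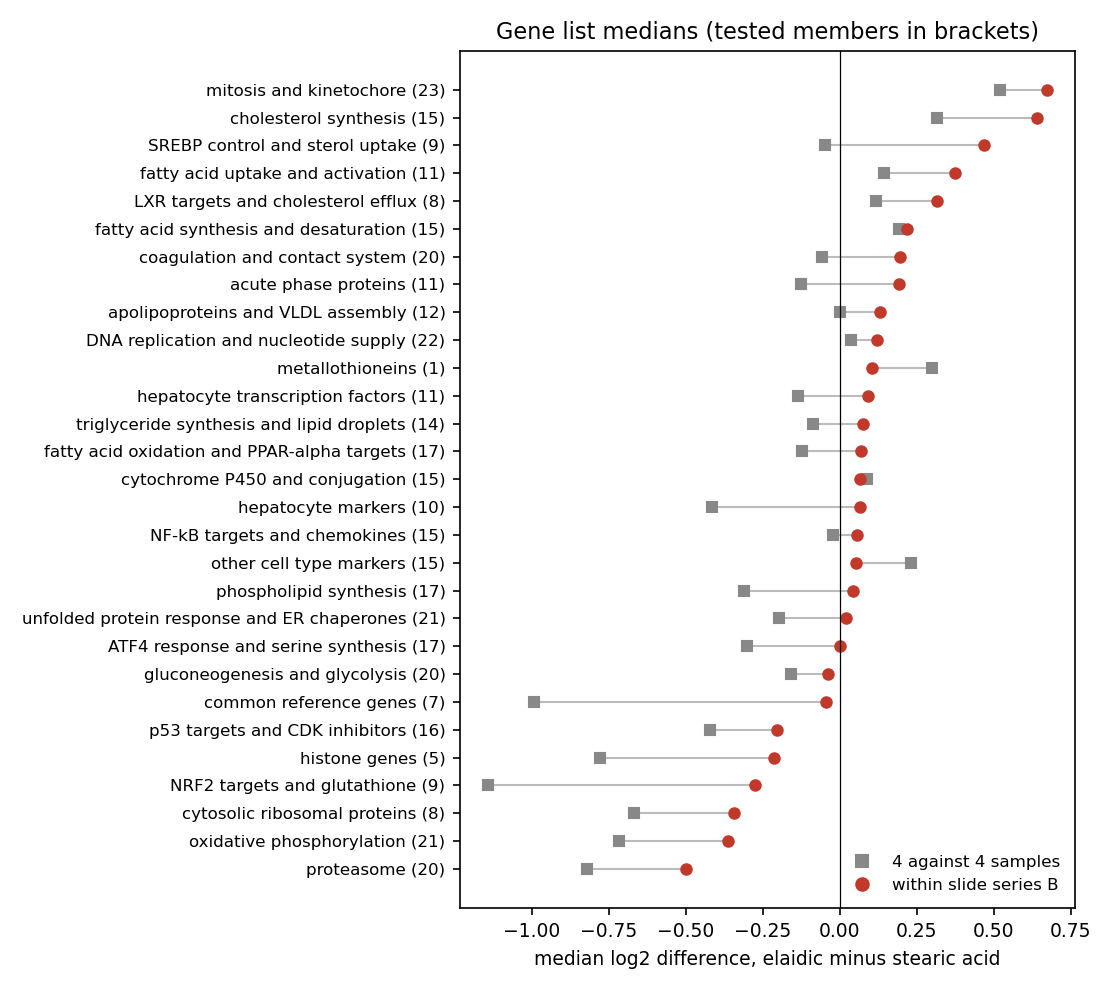
Median log2 difference (elaidic minus stearic) of each of the gene lists, over 4 against 4 samples and within slide series B (number of tested genes in brackets). Mitosis and kinetochore genes (0.52 and 0.67) and cholesterol synthesis genes (0.31 and 0.64) lie above 0 in both forms, proteasome (-0.82 and -0.50) and oxidative phosphorylation (-0.72 and -0.36) below 0 in both, and the reference genes move from -0.99 to -0.05.

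Genes of cholesterol synthesis were mostly higher with elaidic acid within series B, by less than the test could call. These enzymes build cholesterol from acetyl-CoA through mevalonate, farnesyl diphosphate, squalene and lanosterol. Of 15 genes tested, 10 were higher over 8 samples (median 0.31) and 12 within series B (median 0.64), and 0 were called in limma, with 5 higher and 0 lower at an unadjusted p under 0.05 within series B (2.24% and 3.58% of all probes). Within series B, 12 of the 15 had both elaidic arrays above all 4 stearic arrays, beside 11.1% of all probes, and 0 had both below, beside 12.3%. The mean log2 level over the list was 10.01 and 9.87 in the elaidic arrays of series B, 9.39 and 9.39 in those of series A, and 9.53, 9.21, 9.51 and 9.34 in the stearic arrays. The elaidic arrays of series A were thus in the stearic range. Without normalisation the list's median turned to -0.18 over 8 samples, above the -0.28 of all probes, and was 0.55 within series B.

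The promoters of 4 genes are shown with the motifs that occur in them. NSDHL and FDPS stand for the cholesterol list, and CCNB2 and KIF11 for the mitosis list described further on. NSDHL, FDPS and CCNB2 had elaidic levels above all stearic levels in both forms. KIF11 was picked by the same order, but on a dim probe. Within the background size were 3 of its stearic arrays and 1 elaidic array, so its order over 8 samples is not read. Each is the stretch of 250 bases before the gene's start in RefSeq (GRCh38.p14), on the gene's strand, 5′ to 3′: NSDHL at chrX:152830813-152831062, FDPS at chr1:155308616-155308865, CCNB2 at chr15:59104896-59105145 and KIF11 at chr10:92592880-92593129, all on the plus strand. Capitals mark CCAAT, the box bound by NF-Y, on either strand and, in CCNB2 and KIF11, also TTTGAA, the cell cycle homology region, on either strand.
NSDHL: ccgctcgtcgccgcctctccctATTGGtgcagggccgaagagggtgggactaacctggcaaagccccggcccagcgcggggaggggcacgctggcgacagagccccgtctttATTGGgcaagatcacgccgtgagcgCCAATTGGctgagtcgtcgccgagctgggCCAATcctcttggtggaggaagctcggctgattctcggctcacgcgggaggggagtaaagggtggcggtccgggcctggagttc
FDPS: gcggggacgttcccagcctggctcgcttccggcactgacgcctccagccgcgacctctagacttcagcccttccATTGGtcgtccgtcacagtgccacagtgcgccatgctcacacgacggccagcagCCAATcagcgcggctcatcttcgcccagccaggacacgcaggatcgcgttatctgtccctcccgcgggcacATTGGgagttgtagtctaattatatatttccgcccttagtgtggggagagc
CCNB2: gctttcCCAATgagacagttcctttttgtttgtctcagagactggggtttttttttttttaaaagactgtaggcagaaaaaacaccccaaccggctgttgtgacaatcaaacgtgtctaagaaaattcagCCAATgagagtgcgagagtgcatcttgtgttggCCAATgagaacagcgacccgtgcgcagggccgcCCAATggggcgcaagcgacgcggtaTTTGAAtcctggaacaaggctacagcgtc
KIF11: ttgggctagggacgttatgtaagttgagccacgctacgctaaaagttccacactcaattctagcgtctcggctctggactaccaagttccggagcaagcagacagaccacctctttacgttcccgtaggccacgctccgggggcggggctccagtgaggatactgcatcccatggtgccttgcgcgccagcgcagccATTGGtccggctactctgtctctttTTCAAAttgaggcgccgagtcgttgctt
NSDHL holds 5 matches to CCAAT, of which 2 overlap on opposite strands, FDPS 3, CCNB2 4 and KIF11 1, and CCNB2 and KIF11 hold 1 match each to TTTGAA. Among the tested cholesterol genes, 12 matched a promoter, and 10 of these (83.3%) held CCAAT, beside 33.0% of 27305 promoters of this length. The classical sterol regulatory element, searched as TCACNCCAC on both strands, was in 0 of the 12 and in 0.875% of all, which says only that these letters are not in these windows. Among the mitosis genes, 17 matched, 13 (76.5%) held CCAAT, 9 (52.9%) held TTTGAA, beside 13.6% of all promoters, and 8 (47.1%) held both, beside 4.85%. These matches are descriptions of sequence and were not tied to the arrays by a test.

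NSDHL, which removes methyl groups from sterol intermediates, was at 10.27, 10.31, 10.31 and 10.14 with elaidic acid and at 9.85, 9.57, 9.39 and 9.43 with stearic acid. The 4 elaidic arrays lay close together, with no split by slide series, and above all stearic arrays. The difference was 0.70 ± 0.21 (adjusted p = 0.149, limma; 95% interval 0.25 to 1.15) and 0.73 ± 0.25 within series B. FDPS, which makes farnesyl diphosphate, was at 7.30, 7.48, 7.32 and 6.79 against 6.45, 6.25, 6.74 and 6.09, a difference of 0.84 ± 0.28 (adjusted p = 0.193, limma) and of 0.93 ± 0.34 within series B. MVD, which acts before FDPS in the mevalonate arm, was at 0.94 ± 0.27 (adjusted p = 0.133, limma) and 0.46 ± 0.25. Its elaidic arrays split by slide series, at 12.21 and 12.30 in series B and higher, at 13.11 and 13.32, in series A. TM7SF2, a sterol reductase gene, was at 0.50 ± 0.22 and 0.45 ± 0.27.

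Several other genes of cholesterol synthesis had higher mean levels in the elaidic arrays of series B than in those of series A. DHCR7, which makes cholesterol in the last step of a branch of the pathway, was at 12.97 and 12.73 in the series B elaidic arrays, 11.88 and 11.61 in the series A elaidic arrays, and 11.98, 11.83, 11.61 and 11.75 with stearic acid. The series B arrays stood above all stearic arrays and the series A arrays among them, which gave 0.51 ± 0.49 over 8 samples and 1.06 ± 0.56 within series B (adjusted p = 0.949, limma). HSD17B7, at 0.47 ± 0.31 and 0.93 ± 0.32, and ACAT2, which makes acetoacetyl-CoA, at 0.39 ± 0.25 and 0.83 ± 0.24, had the same pattern; these 3 were picked after their values were seen. The other ACAT2 probe was at -0.15 ± 0.53 and 0.45 ± 0.60. CYP51A1, which demethylates lanosterol, was at 0.31 ± 0.21 (95% interval -0.13 to 0.76) and 0.55 ± 0.23, SQLE, the squalene epoxidase gene, at 0.11 ± 0.26 (-0.43 to 0.65) and 0.47 ± 0.27, and SC5DL, now called SC5D, at 0.31 ± 0.29 (-0.31 to 0.93) and 0.64 ± 0.33. The other CYP51A1 probe was at 0.60 ± 0.34 over 8 samples and 0.09 ± 0.36 within series B. Without normalisation the values over 8 samples of CYP51A1, SQLE, SC5DL, TM7SF2, ACAT2 and DHCR7 lay below 0.

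Fatty acid synthesis had its clearest differences in 2 genes. ELOVL6, which extends saturated and monounsaturated chains of palmitate length, was at 12.25, 11.62, 11.56 and 12.02 with elaidic acid and at 10.86, 10.65, 11.04 and 10.44 with stearic acid. All elaidic arrays were above all stearic arrays, and the controls, at 9.75 to 10.70, were below the elaidic arrays too. The difference was 1.11 ± 0.27 (adjusted p = 0.0794, limma) and 1.15 ± 0.33 within series B, and its other probe was at 0.61 ± 0.33 and 0.80 ± 0.40. PNPLA3, a lipid droplet protein gene that SREBP-1c raises, was at 13.26, 13.71, 13.42 and 13.51 against 12.36, 12.62, 12.55 and 12.19, a difference of 1.05 ± 0.24 (adjusted p = 0.0678, limma) and of 0.91 ± 0.29 within series B.

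In the fatty acid synthesis list, PNPLA3 included, 11 of 15 genes were higher over 8 samples (median 0.19, and -0.10 without normalisation). Within series B 12 were higher (median 0.22), and 0 were called in limma in either form. At an unadjusted p under 0.05 in limma, 2 were higher and 0 lower within series B (2.24% and 3.58% of all probes). ACLY, which supplies cytosolic acetyl-CoA from citrate, was at 0.72 ± 0.25 and 0.48 ± 0.29, and ACSS2, which makes acetyl-CoA from acetate, at 0.28 ± 0.50 and 1.01 ± 0.53. ELOVL1, an elongase of very long chains, was at -0.89 ± 0.31 and -0.38 ± 0.30. The desaturase gene SCD and the SREBP regulator gene INSIG1 had a probe with values at or below 0 and were not tested, and LSS had no probe of that symbol.

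In triglyceride synthesis and lipid droplets, 6 of 14 genes were higher over 8 samples (median -0.09) and 8 within series B (median 0.08). In limma 0 were called. At an unadjusted p under 0.05 in limma, 1 was higher and 0 lower within series B (2.24% and 3.58% of all probes). LPIN1, which makes diacylglycerol, stood out on both of its probes: the brighter was at 12.02, 11.06, 11.99 and 11.51 with elaidic acid and at 10.96, 10.47, 10.93 and 10.83 with stearic acid, with a difference of 0.85 ± 0.35 (adjusted p = 0.289, limma) and of 1.21 ± 0.41 within series B, and the other was at 1.00 ± 0.33 and 1.46 ± 0.36. ADFP, now called PLIN2, the main coat protein of lipid droplets, was at 13.32, 12.77, 13.18 and 13.13 against 13.28, 13.52, 13.33 and 12.93. The groups overlapped, and the difference of -0.16 ± 0.21 had a 95% interval of -0.61 to 0.28, with -0.01 ± 0.24 within series B. DGAT1, which forms triglyceride from diacylglycerol, was at 0.41 ± 0.22 and 0.32 ± 0.26, AGPAT2, an enzyme that makes phosphatidic acid, at -0.57 ± 0.25 and -0.43 ± 0.30, and PLIN, now PLIN1, at 0.47 ± 0.35 and 0.49 ± 0.44, with 1 stearic array within the background size.

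The named targets of PPAR-alpha were not called in either form, and over 8 samples their groups overlapped. CPT1A, which lets long acyl chains into mitochondria, was at 0.28 ± 0.21 (95% interval -0.17 to 0.74) and 0.07 ± 0.24 within series B. PDK4, which slows glucose oxidation, was at 0.21 ± 0.68 (-1.23 to 1.65) and 0.94 ± 0.79 on a dim probe, within the background size in all 4 stearic and 3 of 4 elaidic arrays, so that no difference is read from it. ANGPTL4, an inhibitor of lipoprotein lipase, was at 0.26 ± 0.27 (-0.31 to 0.84) and -0.05 ± 0.30. FABP1, the fatty acid binding protein of the liver, was at 14.94 and 14.96 in the series B elaidic arrays, 14.09 and 13.94 in the series A elaidic arrays, and 14.14, 13.95, 13.94 and 13.80 with stearic acid. Both series B elaidic arrays of FABP1 thus stood above all stearic arrays, on its other probe too, beside 11.1% of all probes. The difference was 0.53 ± 0.43 (-0.39 to 1.44) and 0.99 ± 0.50 within series B, and the other FABP1 probe was at 0.46 ± 0.52 and 1.06 ± 0.60.

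Genes of mitosis and the kinetochore were the list with the highest median within series B of the 29 lists. They encode the cyclins, kinases, motors and centromere proteins that divide the chromosomes. Of 23 tested, 18 were higher over 8 samples (median 0.52, and 0.11 without normalisation) and 21 within series B (median 0.67). In limma 0 were called. Within series B, 7 were higher and 0 lower at an unadjusted p under 0.05 in limma (2.24% and 3.58% of all probes). Within series B, 16 of the 23 had both elaidic arrays above all stearic arrays, beside 11.1% of all probes, and 0 had both below, beside 12.3%. The mean log2 level over the list was 7.70 and 7.54 in the series B elaidic arrays, 7.34 and 7.30 in the series A elaidic arrays, and 7.11, 7.01, 7.20 and 6.69 with stearic acid. All 4 elaidic arrays thus stood above all 4 stearic arrays, with stearic replicate 4 the lowest.

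KIF11, the motor that separates spindle poles, was at 5.39, 4.04, 5.04 and 4.87 with elaidic acid and at 3.56, 3.98, 3.36 and 2.86 with stearic acid. The gap between the groups was narrow, at elaidic replicate 2 and stearic replicate 2, and the difference was 1.39 ± 0.45 (adjusted p = 0.178, limma) and 1.77 ± 0.53 within series B. KIF11 was dim: 3 of its 4 stearic arrays and elaidic replicate 2 were within the background size. The order of those arrays and the size of the KIF11 difference are therefore uncertain. CCNB2, a mitotic cyclin, was at 9.27, 9.40, 9.07 and 9.30 against 8.25, 8.57, 8.50 and 7.87, a difference of 0.96 ± 0.27 (adjusted p = 0.127, limma) and of 0.87 ± 0.33 within series B. CENPE, a kinetochore motor, was at 0.98 ± 0.26 (adjusted p = 0.112, limma) and 0.67 ± 0.29, and AURKA, a spindle kinase, at 0.78 ± 0.25 and 0.43 ± 0.26. CEP55, which acts in the final cut between daughter cells and was picked after its values were seen, was at 0.59 ± 0.46 and 1.28 ± 0.49.

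**Figure D4:**
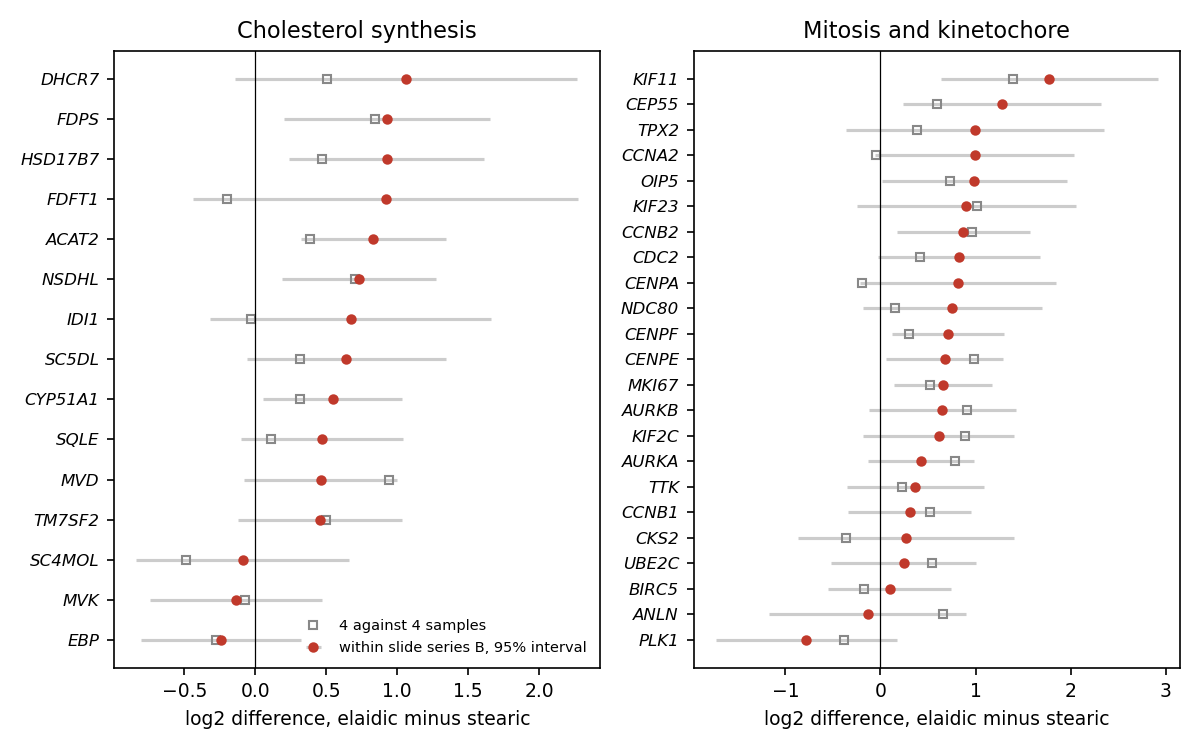
Log2 difference (elaidic minus stearic) of each tested gene of cholesterol synthesis (left) and of mitosis and the kinetochore (right): filled points with their 95% interval are the difference within slide series B, 2 against 4 samples, and open squares the difference over 4 against 4 samples. The filled points of 12 of 15 cholesterol genes and 21 of 23 mitosis genes lie above 0, and most intervals reach 0 or below.

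DNA replication and nucleotide supply, the phase before mitosis, had a lower median than the mitosis list. Of 22 genes, 13 were higher over 8 samples (median 0.04) and 15 within series B (median 0.12), and 0 were called in limma. Within series B, 5 were higher and 0 lower at an unadjusted p under 0.05 in limma (2.24% and 3.58% of all probes). Both elaidic arrays there were above all stearic arrays for 9 genes (11.1% of all probes) and below for 1 (12.3%). Members lay on both sides. TK1, thymidine kinase, was at 11.78, 12.32, 11.80 and 11.90 with elaidic acid and at 11.12, 11.16, 11.36 and 10.30 with stearic acid, a difference of 0.97 ± 0.30 (adjusted p = 0.162, limma) and of 0.81 ± 0.36 within series B. On the other TK1 probe the groups overlapped, with 0.19 ± 0.43 and 0.17 ± 0.54 within series B. PCNA, the sliding clamp of DNA polymerases, was the other way, at 10.49, 9.20, 10.31 and 9.55 against 11.13, 10.75, 11.32 and 11.12, with -1.19 ± 0.38 and -0.67 ± 0.42 within series B. CCNE1, the cyclin of S phase entry, was at -1.86 ± 0.73, with 1 series A elaidic array within the background size, and -0.30 ± 0.59 within series B, and RFC4, a clamp loader subunit, at -0.68 ± 0.27 and -0.13 ± 0.22. ORC6L, now ORC6, of the origin recognition complex, was at 6.24 and 5.36 in the series B elaidic arrays and 1.86 and 3.13 in the series A elaidic arrays, against 2.54, 3.17, 5.29 and 2.36; it was picked after its values were seen, and 3 of its stearic and both series A elaidic arrays were within the background size.

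Genes of the proteasome, the complex that degrades ubiquitin-tagged proteins, were mostly lower with elaidic acid. Of 20 tested, 18 were lower over 8 samples (median -0.82) and 16 within series B (median -0.50); 1 was called lower (0.31% of all probes), and within series B 10 had both elaidic arrays below all stearic arrays (12.3% of all probes) and 0 had both above (11.1%). PSMB3, a subunit of the core's beta rings, was the gene called, at 9.68, 9.21, 9.53 and 9.14 with elaidic acid and at 10.77, 10.54, 10.53 and 10.98 with stearic acid. Its groups did not overlap, with a difference of -1.31 ± 0.24 (adjusted p = 0.0455, limma) and of -1.10 ± 0.28 within series B. PSMD2 was at -1.17 ± 0.26 (adjusted p = 0.0578, limma) and -0.89 ± 0.29, PSMB4 at -0.96 ± 0.22 and -0.91 ± 0.27, and PSMC4, an ATPase of the cap, at -0.89 ± 0.23 and -0.79 ± 0.27. The mean level of the list was 11.25 and 11.05 in the series B elaidic arrays, 10.41 and 10.49 in the series A elaidic arrays, and 11.69, 11.21, 11.52 and 11.68 with stearic acid, so that the 2 elaidic arrays of series B overlapped stearic replicate 2. The reference genes, given above, moved with these values over 8 samples and by far less within series B.

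Subunits of oxidative phosphorylation, the respiratory chain and the ATP synthase, showed the same direction. Of 21 tested, 17 were lower over 8 samples (median -0.72) and 17 within series B (median -0.36), with 0 called in limma. At an unadjusted p under 0.05 in limma, 4 were lower and 1 higher within series B (3.58% and 2.24% of all probes). ATP5O, a stalk subunit of the ATP synthase, was at 10.81, 9.95, 10.65 and 10.21 with elaidic acid and at 11.52, 11.24, 11.55 and 11.61 with stearic acid, a difference of -1.08 ± 0.27 (adjusted p = 0.0902, limma) and of -0.75 ± 0.29 within series B; its other probe was at -0.88 ± 0.60 and 0.27 ± 0.54. ATP5B, the catalytic subunit, was at -0.75 ± 0.21 and -0.58 ± 0.24, and NDUFS3 of complex I at -0.72 ± 0.23 and -0.83 ± 0.27; the other NDUFS3 probe was at -0.88 ± 0.68 and 0.17 ± 0.71, so that its probes differ in sign within series B. CYC1, cytochrome c1 of complex III, was the exception named by the rule, at 10.72, 11.38, 11.15 and 11.23 against 10.36, 9.90, 10.51 and 10.50, with 0.80 ± 0.22 (adjusted p = 0.125, limma) and 0.62 ± 0.26 within series B.

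Outside the list, 2 further subunit genes fell and were picked after their values were seen. ATP5G3, now ATP5MC3, of the ATP synthase's membrane ring, was at 9.86, 9.72, 10.08 and 9.83 with elaidic acid and at 11.42, 11.24, 11.52 and 11.58 with stearic acid, with almost no spread inside either group and no overlap. The difference was -1.57 ± 0.27 (adjusted p = 0.0377, limma) and -1.47 ± 0.33 within series B. NDUFB4 of complex I was at -1.54 ± 0.28 and -1.14 ± 0.30. The proteins of the mitochondrial ribosome, a family likewise chosen after values were seen and matched by symbol, had 52 of 67 genes lower over 8 samples (median -0.66) and 50 within series B (median -0.17), and 4 called lower, beside 0.31% of all probes. These were MRPL17 (-1.08 ± 0.22, and -0.98 ± 0.26 within series B), MRPL23 (-1.46 ± 0.24, and -1.27 ± 0.29), MRPL51 (-0.92 ± 0.19, and -0.74 ± 0.21) and MRPS34 (-1.01 ± 0.20, and -1.04 ± 0.25). The other MRPL23 probe was at 0.81 ± 0.69 and 0.08 ± 0.80, the opposite direction. The other MRPS34 probe was lower too but not called, at -1.13 ± 0.32 and -0.76 ± 0.37. Within series B 24 of the 67 had both elaidic arrays below all stearic arrays, beside 12.3% of all probes, and 1 had both above, beside 11.1%. MRPL54 was at 9.27, 9.69, 9.30 and 9.79 against 10.45, 10.51, 10.53 and 10.49, a difference of -0.98 ± 0.22 (adjusted p = 0.0578, limma) and of -1.21 ± 0.24 within series B.

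Of the cytosolic ribosomal proteins 8 of 35 were tested, since few had a usable probe. 7 were lower over 8 samples (median -0.67) and 5 within series B (median -0.34), and 1 was called lower (0.31% of all probes). RPL8 was at 13.64, 12.78, 13.51 and 13.18 with elaidic acid and at 14.76, 14.53, 14.74 and 14.68 with stearic acid, a difference of -1.40 ± 0.26 (adjusted p = 0.0455, limma) and of -1.10 ± 0.28 within series B. RPL30 was at -1.19 ± 0.42 and -0.58 ± 0.45 while its other probe was at 0.63 ± 0.40 and -0.13 ± 0.35, RPS13 at -0.64 ± 0.24 and -0.42 ± 0.28, and RPL4 at -0.58 ± 0.24 and -0.56 ± 0.30. Ribosomal protein genes have many near-identical pseudogene copies, which a probe may not tell apart.

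Targets of NRF2, the regulator of antioxidant defence, and genes of glutathione had the lowest median over 8 samples of the 29 lists, and much of it lay in the series A elaidic arrays. Of 9 tested, 8 were lower over 8 samples (median -1.14) and 7 within series B (median -0.27), and 0 were called in limma. At an unadjusted p under 0.05 in limma, 1 was lower and 0 higher within series B (3.58% and 2.24% of all probes). GPX2, a glutathione peroxidase, was at 10.66, 9.96, 10.38 and 9.74 with elaidic acid and at 11.28, 11.21, 11.30 and 11.72 with stearic acid, with -1.19 ± 0.29 (adjusted p = 0.085, limma) and -0.85 ± 0.33 within series B. HMOX1, heme oxygenase 1, was at 7.87 and 7.73 in the series B elaidic arrays, 6.79 and 6.23 in the series A elaidic arrays and 8.61, 8.07, 8.59 and 7.93 with stearic acid, with -1.14 ± 0.35 and -0.50 ± 0.32. SRXN1, which repairs peroxiredoxins, went from -1.64 ± 0.64 to -0.19 ± 0.47 and TXN, thioredoxin, from -1.39 ± 0.64 to -0.69 ± 0.74 within series B. The mean level of the list was 7.95 and 7.90 in the series B elaidic arrays, 6.95 and 6.85 in those of series A, and 8.20 to 8.40 with stearic acid.

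**Figure D5:**
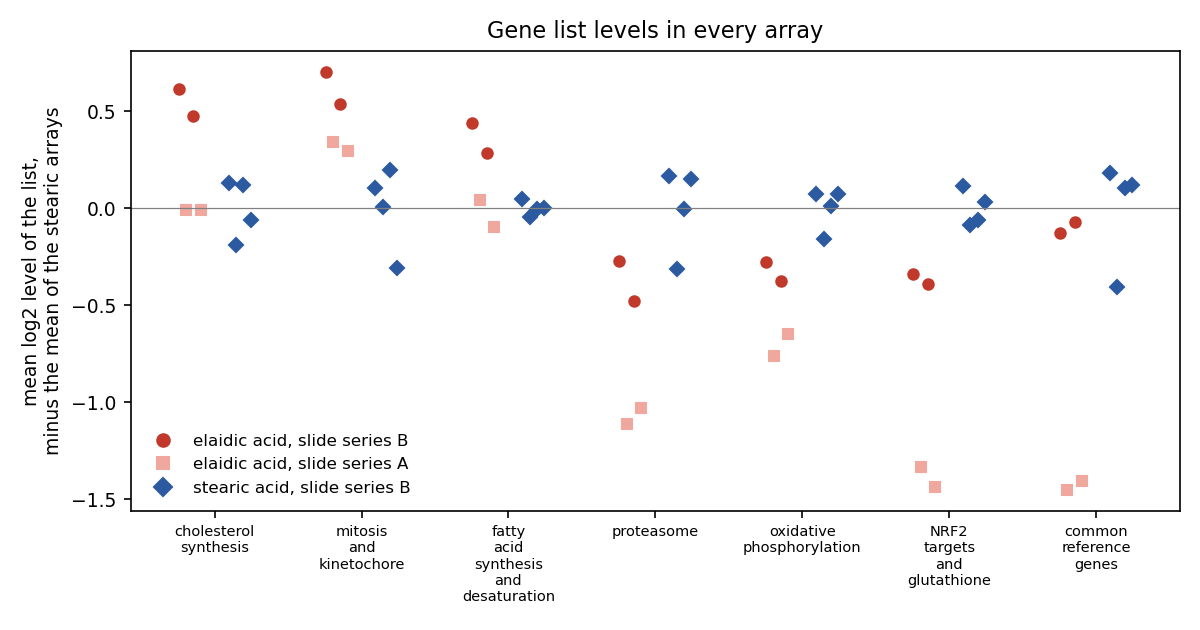
Mean log2 level of 7 gene lists in each array, minus the mean of the 4 stearic arrays, with elaidic arrays of slide series B, elaidic arrays of slide series A and stearic arrays drawn apart. The series A elaidic arrays are lower than the series B elaidic arrays in every list drawn, including the common reference genes (6.57 and 6.62 against 7.89 and 7.95), and the mitosis list is above 0 in all 4 elaidic arrays.

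Genes of the contact system and coagulation, mostly secreted by hepatocytes, were split, with 9 of 20 higher over 8 samples (median -0.06) and 13 within series B (median 0.20), and KNG1 the 1 gene called (0.0872% of all probes were called higher). F11 and F12, which belong with kininogen to the contact system, were at 0.52 ± 0.21 and 0.50 ± 0.22 over 8 samples and at 0.49 ± 0.25 and 0.68 ± 0.26 within series B. F11 was at 10.76, 10.79, 10.72 and 10.81 with elaidic acid and at 10.31, 10.45, 10.33 and 9.92 with stearic acid, with no overlap (adjusted p = 0.276, limma). F2, prothrombin, was lower, at 10.79, 10.22, 10.89 and 9.73 against 11.73, 11.18, 11.29 and 11.84, a difference of -1.10 ± 0.34 (adjusted p = 0.158, limma) and of -0.67 ± 0.37 within series B.

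Saturated fatty acids are known to cause stress of the endoplasmic reticulum, and the genes of that response and of ATF4, the transcription factor of amino acid and secretory stress, were mostly lower with elaidic acid over 8 samples and evenly divided within series B. In the list of the unfolded protein response and its chaperones, 5 of 21 genes were higher over 8 samples (median -0.20) and 11 within series B (median 0.02), and 0 were called in limma (0 at an unadjusted p under 0.05 within series B). In the ATF4 and serine synthesis list 6 of 17 genes were higher over 8 samples (median -0.30) and 9 within series B (median 0.00). There 0 were called in limma, and 2 were at an unadjusted p under 0.05 within series B, 1 in each direction. Of all probes, 2.24% were higher and 3.58% lower at that threshold. ATF4 itself was at 9.43, 9.18, 9.14 and 9.32 with elaidic acid and at 9.95, 10.14, 10.49 and 10.05 with stearic acid, with every elaidic array lower and a difference of -0.89 ± 0.26 (adjusted p = 0.136, limma) and of -0.87 ± 0.32 within series B. Of its targets, DDIT3 was at 0.53 ± 0.35 and 0.67 ± 0.43, ATF3 at 0.33 ± 0.20 and 0.24 ± 0.24, ASNS at -0.42 ± 0.28 and -0.22 ± 0.33, and TRIB3 at -0.14 ± 0.26 (95% interval -0.69 to 0.41) and 0.00 ± 0.31. PHGDH and PSAT1, enzymes of serine synthesis, were at -0.54 ± 0.22 and -0.83 ± 0.37 over 8 samples and at -0.42 ± 0.26 and -0.24 ± 0.38 within series B, and PPP1R15A, which reverses the block of translation, was at 0.64 ± 0.30 and 0.20 ± 0.31. HSPA5, the chaperone BiP, was at -0.57 ± 0.30 (-1.20 to 0.06) and -0.27 ± 0.34.

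The 2 acids differ in structure by the trans double bond of elaidic acid, were given at the same dose and for the same time, and form the 1 pair compared here, so no adjustment over pairs was needed. For some of the genes that missed the threshold, an interval over 8 samples is printed with the values above. These intervals also hold the difference that runs across the slide series, so they do not bound a difference between the acids alone. The median SE of a log2 difference over all probes was 0.36 over 8 samples and 0.40 within series B.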

How the data were processed

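Gene expression was measured in HepG2 cells on 1-colour arrays with 30968 probes. The deposited values are background-subtracted intensity on a linear scale, 1 value per probe and sample, with no scaling between samples in the values; how the authors subtracted the background and combined the 2 technical replicates is not given in the sources used here. GEO's platform annotation gave a symbol for 17397 probes and none for 13571. Of 15240 distinct symbols, 12853 matched RefSeq as written and 2316 through a synonym. Symbols are printed as annotated, with a changed name beside them.

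From the deposited intensity, log2 values were computed, 8029 probes (25.9%) that were 0 or negative in some sample, which have no log, were left out, and the other 22939 were quantile normalised. Depth is not defined for arrays; their number limits the precision. Elaidic minus stearic acid was tested in limma 3.58.1 (R 4.3.3; lmFit, eBayes, 4 group means on all 16 samples, two-sided, Benjamini-Hochberg), and again with slide series as a block, which equals the difference within series B. No test is stated in the labels. Errors are SE of these fits and intervals are 95%. The procedure was tested on simulated data. Promoters came from RefSeq, GRCh38.p14. Plots used Python 3.11.15 and matplotlib 3.10.9.

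Named genes were the 10 called symbols with the largest differences in each direction whose groups did not overlap, those of smallest p with the block, up to 4 members of smallest p of each list described, and a fixed set of lipid and stress genes; genes picked outside this rule are marked. A gene in a list is its probe with the highest mean. The members and the 29 lists were chosen with earlier results of these data known, so lists get no test. Alternatives covered the normalisation, the filter, the model, the block and each left-out sample.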

Additional observations from a re-analysis of the deposited data

Results flagged for a closer look

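Within each group of 4 arrays, the levels of the named genes, the mean levels of gene lists and the median intensity were searched for an array far from the other 3. The measure was the gap to its neighbour over the whole range (Dixon's test at its 95% limit). This marked 12 of 222 groups, all of them levels of named genes, and chance marks about 1 in 20. With elaidic acid, DGAT1 was highest in replicate 2 at 12.98 (the others 12.68 to 12.72), F12 lowest in replicate 4 at 8.06 (8.71 to 8.77), HSPA5 lowest in replicate 4 at 5.79 (6.77 to 6.88), CBR1 lowest in replicate 2 at 8.73 (9.11 to 9.16) and MRPS34 lowest in replicate 1 at 9.15 (9.26 to 9.28). With stearic acid, replicate 2 was the lowest for MTX1 at 5.96 (6.52 to 6.59), CAPNS1 at 6.38 (7.23 to 7.33), UHRF1 at 7.05 (7.43 to 7.48), CCNE1 at 6.41 (7.16 to 7.20) and PSMB4 at 13.60 (14.17 to 14.21). MVD was lowest in stearic replicate 1 at 11.52 (11.87 to 11.89), and NDUFS3 highest in stearic replicate 3 at 12.24 (12.02 to 12.03).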

How the results depend on the processing

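Against the 91 calls, the count was 1 with slide series as a block, 0 in the 6 samples of series B alone (2984 at an unadjusted p under 0.05), 0 in the 8 elaidic and stearic samples alone (3840), 0 without normalisation (2537), 0 with a 1.5-fold minimum change (533) and 0 with the block and the dimmest 50% of probes left out (912). It was 129 with median centring, 128 with cyclic loess, 581 with an offset of 50 on all probes, 294 without the dimmest 50% of probes, 223 with an intensity trend and 1030 with array weights. The share of calls that were higher was 22% and became 6.98% with median centring, 37.4% without the dimmest probes, 35% with the trend and 36% with array weights. Elaidic replicates 2 and 4 against stearic acid, which runs across the slide series and was chosen after seeing the data, gave 3401. Without 1 sample at a time the count was 0 to 51. The replicate numbers did not pair the samples (correlations of deviations 0.16, 0.16, 0.00 and -0.06), and with a replicate block 0 probes were called (2957 unadjusted).

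Of 29 list medians, 9 were above 0, and 21 with the block or in the 6 samples of series B, 1 without normalisation, 15 with array weights and 8 to 14 without 1 sample at a time. The medians within series B of 11 lists were examined under 4 other scalings and without each of the 6 samples of that series. The unfolded protein response list was not among them. The medians kept their sign, except that ATF4 and serine synthesis ran from -0.12 to 0.11 and triglyceride synthesis fell to -0.04 without elaidic replicate 1. These alternatives were chosen after seeing the data. Of 99 named probes 86 to 99 kept their sign, or 74 of the 74 left without the dimmest probes. Signs turned with the block, and in the 6 samples, for UHRF1 (1.24), ANGPTL4 (-0.0467) and TRIB3 (0.0022). Without normalisation they turned for TM7SF2 (-0.0183), DGAT1 (-0.0844), CYP51A1 (-0.18), SQLE (-0.33), SC5DL (-0.18), ACSS2 (-0.0253), FABP1 (-0.026), CPT1A (-0.15), PDK4 (-0.15), ANGPTL4 (-0.0818), ATF3 (-0.14), ACAT2 (-0.0866) and DHCR7 (-0.0148). SQLE was at -0.0019 with median centring, and array weights gave UHRF1 0.67 and ANGPTL4 -0.0105. With elaidic replicates 2 and 4 against stearic acid, SQLE was at -0.25, SC5DL at -0.0166, ACSS2 at -0.45, PDK4 at -0.53, ACAT2 at -0.0579, DHCR7 at -0.0491, CEP55 at -0.10 and ORC6L at -0.84. Without 1 sample at a time, UHRF1 ran from -0.95 to 0.21, SQLE from -0.0321 to 0.30, ACSS2 from -0.12 to 0.55 and PDK4 from -0.31 to 1.01. The cause of these changes was not tested.

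Probes near background have no order among their levels, and 2 probes that fell lay within the background size in all elaidic arrays.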
